A study of Mus musculus with 13 samples.

Results

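Nuclei of heart muscle cells from female and male C57BL/6J mice, an inbred laboratory strain, were compared gene by gene on chromosomes 1 to 19. All mice of this comparison had received the control vector, an adeno-associated virus of serotype 6 with no insert, by a single intraperitoneal injection on postnatal day 1, and ventricles were taken on postnatal day 56. The comparison used 7 of the series' 13 libraries, 4 from females (Con_F 1 to 4) and 3 from males (Con_M 1 to 3). The other 6 libraries, 3 from females (PGR_F 1, 2 and 4) and 3 from males (PGR_M 1 to 3), came from mice of the same strain and age given the same virus with the human progesterone receptor as insert. They entered the model fit and supply a second comparison of the sexes. Each library pooled whole ventricles of 3 to 6 mice, and nuclei were sorted for Pcm1, a centriolar protein that marks the nuclei of cardiomyocytes. The labels do not say whether the pools of a group came from separate litters or days, so the p-values measure the spread between these pools. The deposited table held read counts for 55536 genes, of which 51229 lie on the autosomes, and 15614 of these passed the count filter and were tested.

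In a heart muscle cell contraction follows calcium release from the sarcoplasmic reticulum. Relaxation comes as calcium is pumped back or pushed out across the surface membrane by an exchanger and by calcium pumps. Female and male hearts run the same contractile and metabolic machinery. Autosomal genes are present in equal copy number in both sexes, and sex hormones with their nuclear receptors and genes on the sex chromosomes are known regulators that can make their expression differ.

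The labels were checked first. Xist, whose RNA covers an inactivated X, lay at 1049 to 1151 CPM (counts-per-million of the library, scaled by TMM) in Con_F and 0.313 to 0.641 CPM in Con_M. Levels of 4 genes of the Y chromosome (Ddx3y, Eif2s3y, Kdm5d and Uty) were summed and set against the mean of all male libraries, Con_M and PGR_M. Con_F 4 reached 1.01% of that mean (159 counts) and Con_F 1 to 3 reached 0.0112% to 0.0958%. Total counts were 37646536 to 58948135 in Con_F and 33299624 to 86330792 in Con_M, with Con_M 1 the deepest. Mitochondrial transcripts took 0.352% ± 0.0759 of counts (SD, n = 4) in Con_F and 0.367% ± 0.0465 (n = 3) in Con_M, a difference within the spread of the libraries (exact two-sided permutation p = 0.857, where 35 arrangements allow no p under 0.0286). Across the autosomal genes tested the libraries were much alike, with correlations of log2 CPM of 0.988 to 0.991 within Con_F, 0.986 to 0.991 within Con_M and 0.982 to 0.993 between them. The first principal component of the 7 libraries held 32.6% of the variance and placed Con_F 4 (-2.21) beside Con_M 1 (-2.19), with Con_F 1 to 3 at -17.7, -25.0 and -19.2 and Con_M 2 and 3 at 32.7 and 33.7.

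Few autosomal genes differed between the sexes past the threshold. At an adjusted p under 0.05 (edgeR quasi-likelihood test, Benjamini-Hochberg adjustment over all 16125 tested genes of the table), 24 of 15614 autosomal genes passed, which is 0.154%. Of these, 8 were higher in females (0.0512% of those tested), by 1.35 to 1.97 times, and 16 were lower (0.102%), by 1.29 to 3.98 times. An unadjusted p under 0.05 was reached by 1919 autosomal genes (12.3%), 1137 higher (7.28%) and 782 lower (5.01%) in females. The adjustment included 13 genes off the autosomes that passed in the same comparison. With the adjustment taken over the autosomal genes alone 0 genes passed: the 24 genes then had adjusted p-values from 0.0561 to 0.0723, and 48 genes lay under 0.1 (18 higher and 30 lower). The count also moved with single libraries: 5 higher and 5 lower without Con_F 1, 1 and 2 without Con_F 2, 1 and 1 without Con_F 3, 21 and 53 without Con_F 4, 64 and 20 without Con_M 1, and 1 and 5 without Con_M 2 or without Con_M 3. Without Con_F 4, the female library with the Y-linked counts, 23 of the 24 genes still passed. Over the 7 leave-outs the call held 7 times for Atp2b2, 5 times for Rab10os, 4 times for Gm20125 and Ano5 and 3 times or fewer for the other 20. The PGR libraries share the estimate of the spread, and leaving out one of them gave 2 to 7 higher and 5 to 10 lower, with 7 (without PGR_M 3) to 14 (without PGR_M 1) of the 24 still called. With the 7 control libraries fitted alone, 5 of the 24 remained and 19 missed the threshold (edgeR adjusted p up to 0.168). The direction of all 24 was the same in all 24 alternative analyses, which reuse these counts. Female and male libraries do not overlap in any of the 24, so the direction could hardly change.

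**Figure D1:**
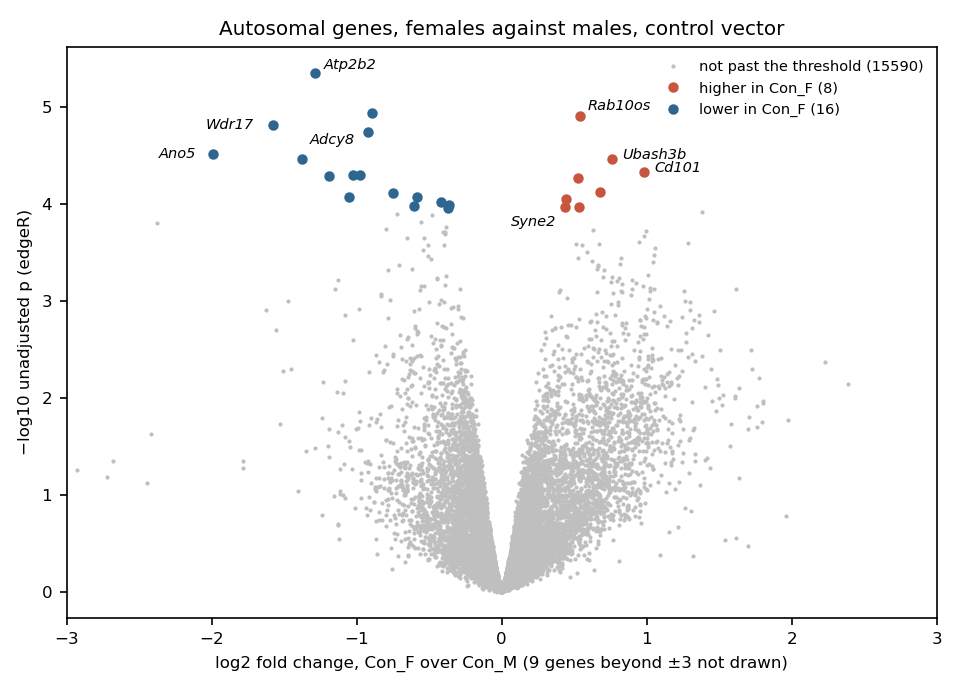
Each point is an autosomal gene, placed by its log2 fold change of females over males under the control vector (x axis) and by the −log10 of its unadjusted edgeR p (y axis); colours mark the 8 genes higher and the 16 lower in Con_F at an adjusted p under 0.05, and 9 genes beyond 3 on the x axis are not drawn. Most of the genes past the threshold lie on the male-higher side, with Ano5 at -1.99 and Wdr17 at -1.58 farthest out and Atp2b2 with the smallest p.

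The 16 genes lower in females include a calcium pump, an adenylyl cyclase, a nitric oxide synthase and a muscle anoctamin. Atp2b2 (ENSMUSG00000030302, GRCm38 chr6:113743831-114042613, minus strand), which encodes a calcium pump of the surface membrane, had 1.13, 1.24, 1.51 and 1.64 CPM in Con_F 1 to 4 and 3.09, 2.79 and 4.20 CPM in Con_M 1 to 3. Every female library lay under every male library, and the fitted female level was 0.410 times the male level (log2 fold change -1.29, standard error 0.19, edgeR adjusted p = 0.00799). Adcy8, an adenylyl cyclase that calcium and calmodulin stimulate, had 10.6, 9.26, 9.62 and 11.4 CPM in Con_F 1 to 4 and 20.9, 18.5 and 18.7 CPM in Con_M 1 to 3. Here too the groups were well apart, with every male library above the highest female one (log2 fold change -0.92, standard error 0.15, edgeR adjusted p = 0.0171). Nos1, the neuronal nitric oxide synthase, which heart muscle cells also make and which calmodulin activates, had 1.70, 1.17, 1.32 and 2.30 CPM in Con_F 1 to 4 and 2.94, 3.79 and 3.39 CPM in Con_M 1 to 3. Con_F 4, at 2.30 CPM, came closest to the males, and no male overlapped the females (log2 fold change -1.05, standard error 0.20, edgeR adjusted p = 0.0457).

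Ano5 (GRCm38 chr7:51511029-51598709, plus strand), an anoctamin whose loss causes muscular dystrophy in humans, showed the largest fold of the 24 genes. It had 1.87, 0.887, 1.51 and 2.80 CPM in Con_F 1 to 4 and 10.1, 4.81 and 5.85 CPM in Con_M 1 to 3. Females lay under males throughout, at 0.251 times the male level (log2 fold change -1.99, standard error 0.32, edgeR adjusted p = 0.0272), and the males spread from 4.81 to 10.1 CPM. Cdh4, a cadherin that joins neighbouring cells, had 181, 113, 128 and 213 CPM in Con_F 1 to 4 and 300.3, 396 and 389 CPM in Con_M 1 to 3. The females spread widely and stayed under the males (log2 fold change -1.19, standard error 0.20, edgeR adjusted p = 0.0344). Lgi1, a secreted protein best known from synapses, had 7.97, 7.79, 8.56 and 14.1 CPM in Con_F 1 to 4 and 19.6, 19.4 and 19.4 CPM in Con_M 1 to 3. The males sat close together, while Con_F 4 stood apart from the other females and nearest to the males (log2 fold change -1.02, standard error 0.18, edgeR adjusted p = 0.0344). Sh3gl2, the membrane-curving protein endophilin of synaptic vesicles, ranged over 3.10 to 4.07 CPM in Con_F and 5.30 to 6.65 CPM in Con_M (log2 fold change -0.75, standard error 0.14, edgeR adjusted p = 0.0447). It shares its strand and part of its interval with Adamtsl1, and reads in an interval that genes of 1 strand share were left uncounted where this could be checked: all 442 protein-coding autosomal genes that lie wholly inside another gene of the same strand were at 0 in all 13 libraries.

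Smaller differences in the same direction were found in 3 enzyme genes. Gsta4, a glutathione transferase for products of lipid peroxidation, ranged over 9.41 to 10.2 CPM in Con_F and 12.8 to 13.6 CPM in Con_M (log2 fold change -0.42, standard error 0.08, edgeR adjusted p = 0.0476). Galm, the galactose mutarotase, ranged over 70.8 to 84.2 CPM in Con_F and 97.2 to 104 CPM in Con_M (log2 fold change -0.36, standard error 0.07, edgeR adjusted p = 0.0484). Mgmt, which removes alkyl groups from guanine in DNA, ranged over 35.1 to 39.8 CPM in Con_F and 45.6 to 52.8 CPM in Con_M (log2 fold change -0.37, standard error 0.07, edgeR adjusted p = 0.0484). Fitted female levels were 0.749, 0.778 and 0.772 times the male levels, and the narrow groups did not overlap. The other 6 genes lower in females carry clone-like names or lay under the level set for naming (a mean log2 CPM of 1), and they are named here after their values were seen: Wdr17 (log2 fold change -1.58), 2310067P03Rik (-1.38), Gm42397 (-0.98), Gm20125 (-0.89), Gm47760 (-0.61) and A530058N18Rik (-0.58). Wdr17 is protein-coding and the others are noncoding by the GENCODE annotation. Gm20125 and Gm47760 lie 199 kb apart on the minus strand of chromosome 10, the closest pair among the 24 genes. A530058N18Rik overlaps the cardiac actin gene Actc1 on the opposite strand, and Actc1 had a mean of 363 CPM in Con_F and 457 CPM in Con_M (log2 fold change -0.33, edgeR adjusted p = 0.619).

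The 8 genes higher in females showed folds of 1.35 to 1.97. Rab10os (ENSMUSG00000079179, GRCm38 chr12:3235504-3250377, plus strand), a noncoding transcript on the strand opposite to the vesicle-trafficking GTPase Rab10, had the smallest p among them. It had 32.8, 29.6, 30.4 and 26.1 CPM in Con_F 1 to 4 and 18.8, 21.8 and 20.9 CPM in Con_M 1 to 3 (log2 fold change 0.54, standard error 0.09, edgeR adjusted p = 0.0142). Rab10 itself had a mean of 153 CPM in females and 163 CPM in males and did not pass (log2 fold change -0.09, edgeR adjusted p = 0.716). The counts separate such partners by strand: of 710 protein-coding genes that lie wholly inside a gene of the opposite strand only, 149 were at 0 in all libraries, against 442 of 442 inside a gene of the same strand. Slc38a1, a sodium-coupled transporter of glutamine and other neutral amino acids, had 18.8, 21.4, 20.7 and 21.5 CPM in Con_F 1 to 4 and 12.5, 14.3 and 16.2 CPM in Con_M 1 to 3. The groups were apart, with Con_M 3 closest to the females (log2 fold change 0.53, standard error 0.10, edgeR adjusted p = 0.0351). Syne2, a nesprin that anchors the nucleus to the cytoskeleton, ranged over 61.5 to 69.1 CPM in Con_F and 43.1 to 54.8 CPM in Con_M (log2 fold change 0.44, standard error 0.08, edgeR adjusted p = 0.0484). Itpkb, a kinase that acts on the calcium-releasing messenger inositol trisphosphate, ranged over 31.7 to 38.8 CPM in Con_F and 23.4 to 26.1 CPM in Con_M (log2 fold change 0.44, standard error 0.08, edgeR adjusted p = 0.0464), and Cmip, an adaptor of signalling in immune cells, over 20.6 to 28.0 CPM in Con_F and 12.7 to 16.2 CPM in Con_M (log2 fold change 0.68, standard error 0.13, edgeR adjusted p = 0.0447).

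The other 3 genes higher in females were Ubash3b, Cd101 and Stxbp2. Ubash3b, a phosphatase that dampens signalling from surface receptors, had 5.72, 7.86, 7.58 and 7.75 CPM in Con_F 1 to 4 and 4.57, 3.79 and 4.39 CPM in Con_M 1 to 3 (log2 fold change 0.76, standard error 0.13, edgeR adjusted p = 0.0277). Cd101, a surface protein of leukocytes, had 6.10, 6.30, 6.65 and 4.86 CPM in Con_F 1 to 4 and 2.66, 3.42 and 3.08 CPM in Con_M 1 to 3 (log2 fold change 0.98, standard error 0.18, edgeR adjusted p = 0.0344). Stxbp2, a syntaxin-binding protein that blood cells need for granule release, ranged over 6.87 to 7.83 CPM in Con_F and 4.86 to 5.02 CPM in Con_M (log2 fold change 0.53, standard error 0.10, edgeR adjusted p = 0.0484). In each of the 3 the female and male libraries did not overlap. Of the 18 tested macrophage and leukocyte markers 16 were above 0, the side of these genes, with a median log2 fold change of 0.51. An unadjusted p under 0.05 was reached by 4 markers higher and 1 lower in females (edgeR). Over all autosomal genes tested these shares were 7.28% and 5.01%. The summed level of all 26 such markers was 32.2 to 39.8 CPM in Con_F and 25.0 to 32.3 CPM in Con_M, and the groups overlapped slightly. S100a8 and Itgam were at 0 in every control library. A count of 0 can also come from an interval shared with another gene, so it does not show absent expression. The part of the leukocyte markers in the result was not tested.

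**Figure D2:**
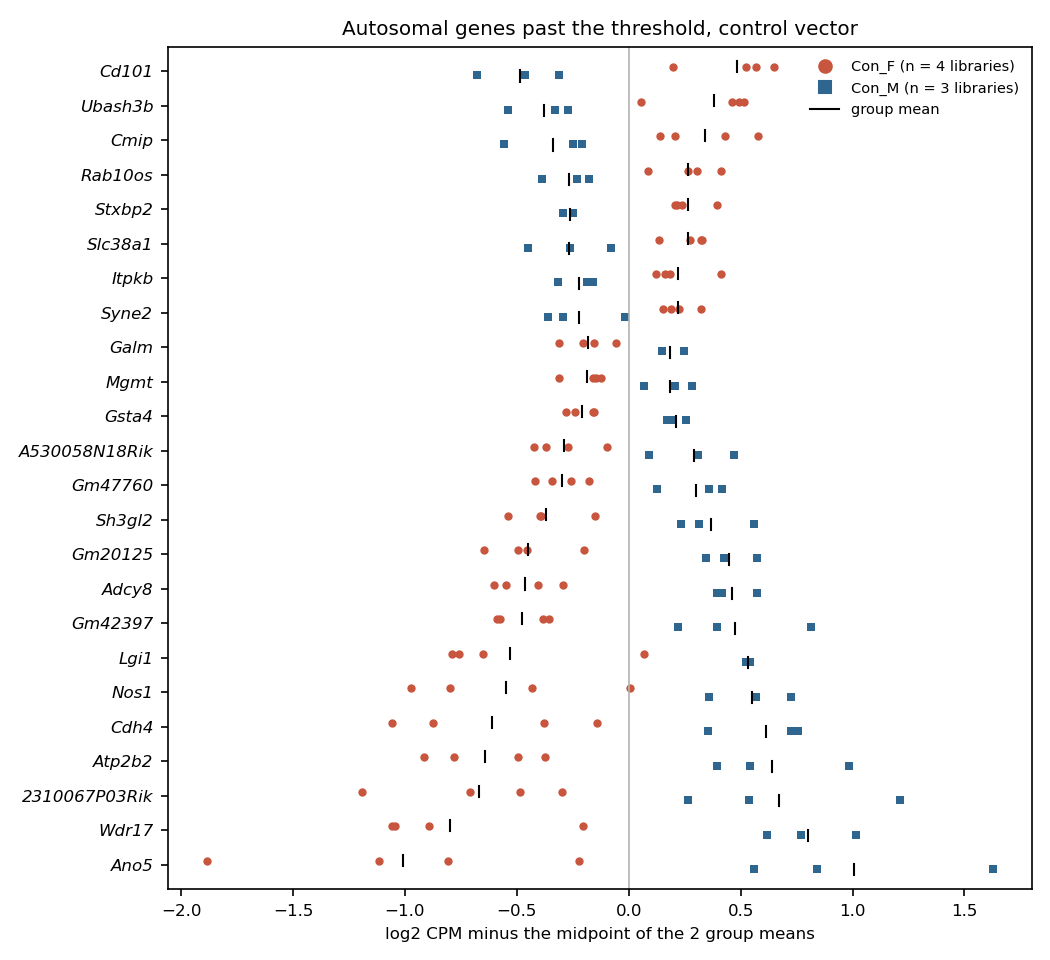
The 24 autosomal genes past the threshold, with the log2 CPM of each library drawn relative to the midpoint of both group means (x axis); circles are the 4 Con_F libraries, squares the 3 Con_M libraries and short lines the group means. For every gene the circles and squares do not overlap, and the distance between the group means widens from the 3 enzyme genes Galm, Mgmt and Gsta4 to Ano5 at the bottom.

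In all 24 genes the control females and males did not overlap. Groups apart in either direction were found in 1768 of the 15614 autosomal genes (11.3%), with every female above every male in 1002 (6.42%) and below in 766 (4.91%), and the 24 were picked by the same contrast. By annotation 18 of the 24 are protein-coding, 3 are lincRNAs, 2 are processed transcripts and 1 is antisense. Their median length from start to end was 140 kb, against 23.8 kb over all autosomal genes tested, and the counted interval includes introns. They were spread over the chromosomes, with at most 3 on a chromosome (7 and 8) and 0 on chromosomes 11, 14, 16 and 18. The values changed little at the threshold itself: Stxbp2 and Mgmt lay just inside (adjusted p = 0.0484 each, edgeR), and Slc26a10 (0.0508), Shisa6 and Ccdc146 (0.0525 each) just outside.

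The promoters of these genes were searched for the sites of hormone receptors and of clock regulators. RefSeq promoters of GRCm38.p6, from 250 bases before to 50 after a start, were matched for 15 of the 24 genes, which gave 23 promoters. The oestrogen response element (GGTCA and TGACC with any 3 bases between) was found in 0 of 23, against 0.0212% of the promoters of all tested autosomal genes. The element of the glucocorticoid and androgen receptors (GAACA and TGTTC with any 3 bases between) was in 0 of 23, against 0.0353%. With sites this rare, 0 of 23 was nearly certain for both elements, so these counts tell nothing about hormone receptors. The E-box CACGTG was in 3 of 23, against 9.28%, and the D-box TTATGTAA in 1 of 23, an Atp2b2 promoter, against 0.629%. Both strands were searched, and a match describes the letters only. The E-box stretches are shown because they are the motif shared by several of the 24 genes. Stxbp2 and Rab10os were higher in females and Wdr17 was lower. Each is written 5′ to 3′ on the gene's strand, with the E-box in capitals, and lies at chr8:3631079-3631108 (plus strand), chr12:3235751-3235780 (plus strand) and chr8:54724497-54724526 (minus strand) in that order.
Stxbp2: cccacggggtggggccCACGTGgatgacgc
Rab10os: gacatcaccccgCACGTGcctgcgctggca
Wdr17: tagggtgcttgtCACGTGcaattctggggc

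The mice with the PGR vector gave the same contrast in other libraries, although both were read from a single fit with a shared estimate of the spread. There 8 of 15614 autosomal genes passed (0.0512%), and 1114 had an unadjusted p under 0.05 (7.13%). Of the 24 genes of the control comparison 23 had the same sign, against 62.0% of all autosomal genes. An unadjusted p under 0.05 in the same direction was reached by 13 of 24, against 935 of all 15614 autosomal genes. In 15 of 24 the groups were apart in the same direction, against 1598 of 15614. Groups were apart in either direction in 13.6% of autosomal genes. Atp2b2 passed again, with 1.53, 1.71 and 1.55 CPM in PGR_F 1, 2 and 4 and 3.40, 4.69 and 4.89 CPM in PGR_M 1 to 3, a log2 fold change of -1.43 (SE 0.20) and an edgeR adjusted p of 0.00407. All 3 females were again under all 3 males. Of the 8 calls under the PGR vector few held without single libraries of that vector: the count was 1 without PGR_F 1 or PGR_M 3, 2 without PGR_M 2, 3 without PGR_F 2 or PGR_F 4 and 5 without PGR_M 1. Atp2b2 passed in each of these (edgeR adjusted p from 0.00335 to 0.0373).

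A group of genes lower in females had nearly the same size under both vectors. Cdh4 had 119, 136 and 148 CPM in PGR_F and 300.2, 266 and 371 CPM in PGR_M, a log2 fold change of -1.22 (SE 0.22) after -1.19 under the control vector. Nos1 had 1.93, 1.75 and 1.40 CPM in PGR_F and 3.85, 3.57 and 3.49 CPM in PGR_M (-1.11 after -1.05). Lgi1 had 11.0, 11.2 and 8.08 CPM in PGR_F and 19.4, 19.1 and 21.2 CPM in PGR_M (-0.98 after -1.02). In all 3 the sexes did not overlap, with edgeR adjusted p-values of 0.0616, 0.0618 and 0.0907 in that order, just over the threshold. Ano5 stood at -1.65 (SE 0.35) and Sh3gl2 at -0.56 (SE 0.15), also with groups apart (adjusted p = 0.142 and 0.306, edgeR). Among the genes higher in females, Slc38a1 (0.34), Ubash3b (0.41), Syne2 (0.29) and Rab10os (0.28) had groups apart in the same direction and did not pass (edgeR adjusted p from 0.389 to 0.5).

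Other genes had smaller values under the PGR vector. Adcy8 had 17.0, 16.9 and 10.8 CPM in PGR_F and 16.8, 14.2 and 19.8 CPM in PGR_M, so that the sexes overlapped (log2 fold change -0.19 (SE 0.16)). Stxbp2 stood at 0.04 (SE 0.11), Itpkb at 0.09 (SE 0.09) and Mgmt at -0.09 (SE 0.08). A530058N18Rik was the gene of opposite sign, at 0.19 (SE 0.12), and had the smallest p for the difference of the sex difference between the vectors among the 24 (edgeR, unadjusted p = 0.000242). Of the 24, 21 had a smaller log2 fold change under the PGR vector, with a median size of 0.31 after 0.75. The difference between the vectors reached an unadjusted p under 0.05 in 10 of 24, all toward 0, but the control values that chose the genes enter it, so this is a description. Over all autosomal genes 0 passed for that difference in edgeR (503 at an unadjusted p under 0.05, 3.22%), 0 in limma-voom and 1 in DESeq2.

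**Figure D3:**
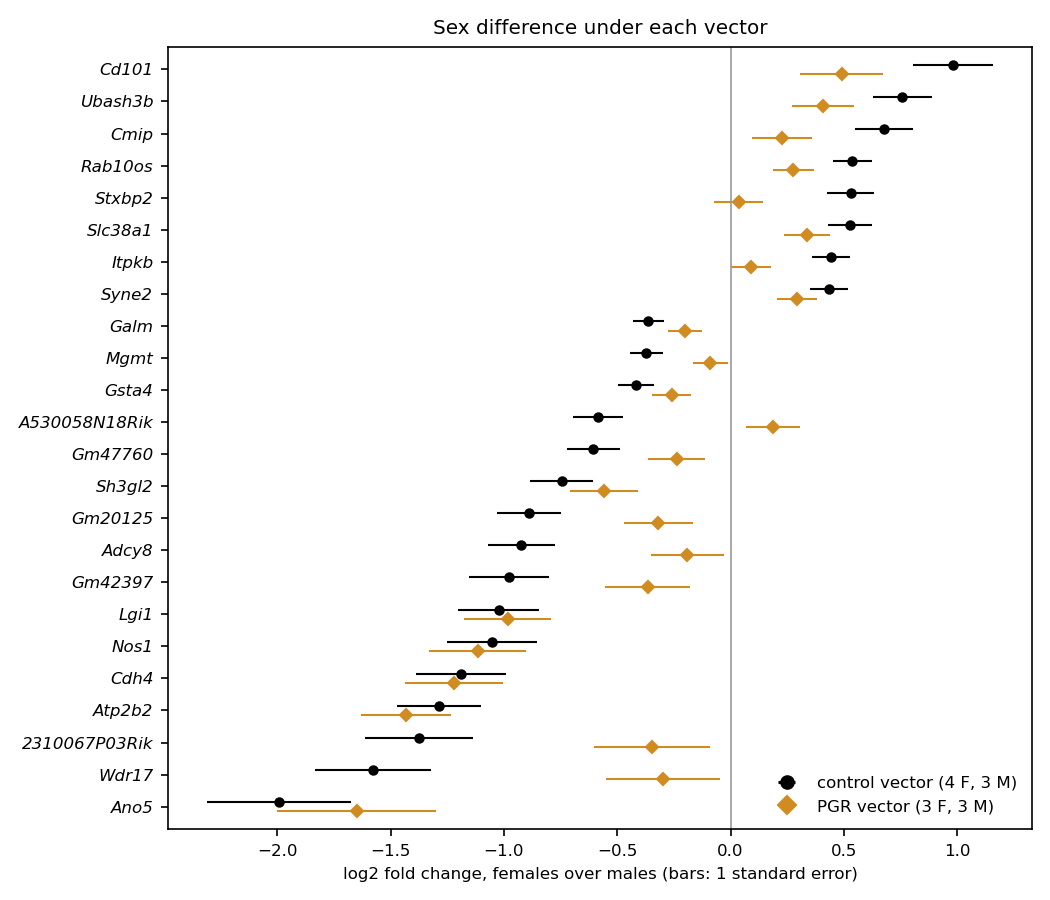
Log2 fold change of females over males (x axis) for the 24 genes under the control vector (circles, 4 against 3 libraries) and the PGR vector (diamonds, 3 against 3 libraries), with bars of 1 standard error. The points nearly coincide for Lgi1, Nos1, Cdh4 and Atp2b2, while those of Wdr17, 2310067P03Rik and Adcy8 are far apart and A530058N18Rik changes side.

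Gene groups were described by counts and medians over 31 lists of heart, hormone, metabolic and cell type genes. The median log2 fold change of all autosomal genes tested was 0.00, and 50.1% were above 0. Calcium handling had a called member, Atp2b2, and the other 30 lists had 0 in edgeR. Of all list members limma-voom also called Atp2b2 alone, and DESeq2 called 13 more: Acta1, Adcy5, Adra1a, Akt1, Bin1, Cish, Dkk3, H2-D1, Igfbp7, Kcnn3, Mybphl, Pecam1 and Plagl1. Of 29 tested calcium genes 1 fell, 28 did not pass, and the median was -0.05. Ryr2, the release channel, had a log2 fold change of 0.07, and Atp2a2, the pump that refills the store, 0.15. The surface-membrane pump Atp2b1 stood at 0.01 (edgeR adjusted p = 0.981), and its relative Atp2b4 at 0.83, with 4.40 to 5.89 CPM in Con_F and 1.37 to 4.18 CPM in Con_M (adjusted p = 0.267). The exchanger Slc8a1 stood at -0.26. Jph1, which ties the reticulum to the surface membrane, had 107 to 119 CPM in Con_F and 135 to 138 CPM in Con_M, a narrow gap without overlap that did not pass (log2 fold change -0.29, standard error 0.09, edgeR adjusted p = 0.225).

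Contractile and identity genes held no call. The 20 cardiomyocyte identity genes had a median log2 fold change of 0.03, 12 of 20 above 0, 1 with an unadjusted p under 0.05 and summed levels of 83419 to 94386 CPM in Con_F and 85465 to 93968 CPM in Con_M. Ttn, the giant sarcomere spring, stood at -0.06, Tnnt2, a troponin, at 0.01 and Myh6, the main motor protein of the adult mouse ventricle, at 0.06. Among 33 sarcomere genes 0 passed, 3 had an unadjusted p under 0.05 (12.3% of all autosomal genes tested did) and the median was -0.06. The member with the smallest p was Acta1, the skeletal muscle actin, with 3.88, 2.66, 2.08 and 4.02 CPM in Con_F 1 to 4 and 7.55, 7.44 and 5.76 CPM in Con_M 1 to 3. Its groups did not overlap, yet it missed the threshold (log2 fold change -1.13, standard error 0.26, edgeR adjusted p = 0.112). Mybphl, a myosin-binding protein of atrium and conduction tissue, had 1.73, 3.92, 3.13 and 1.75 CPM in Con_F 1 to 4 and 1.11, 0.798 and 1.03 CPM in Con_M 1 to 3 (log2 fold change 1.40, standard error 0.44, edgeR adjusted p = 0.239).

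Beta-adrenergic and cAMP genes counted 14 of 32 above 0, with a median of -0.06 and 0 past the threshold. An unadjusted p under 0.05 was reached by 8 of 32, 5 higher and 3 lower in females, against 12.3% of all autosomal genes tested. This list does not hold Adcy8, the adenylyl cyclase described above that was lower in females. Adcy5, a main adenylyl cyclase of the heart, had 186, 174, 198 and 197 CPM in Con_F 1 to 4 and 146, 154 and 159 CPM in Con_M 1 to 3. It was thus higher in every female than in any male, the reverse of Adcy8, and did not pass (log2 fold change 0.30, standard error 0.08, edgeR adjusted p = 0.168). Adra1a, an alpha-adrenergic receptor, had 174 to 259 CPM in Con_F and 247 to 323 CPM in Con_M (log2 fold change -0.49, standard error 0.13, edgeR adjusted p = 0.173). Among 40 ion channel and gap junction genes the median was 0.01. Every female lay above every male in 3 of 40 and below in 1 of 40, against 6.42% and 4.91% of all autosomal genes tested. The small-conductance potassium channels Kcnn3 and Kcnn2 were among these, in opposite directions. Kcnn3 stood at 0.95, with 1.39 to 2.10 CPM in Con_F and 0.741 to 1.10 CPM in Con_M (edgeR adjusted p = 0.156). Kcnn2 stood at -0.28, with 797 to 991 CPM in Con_F and 1026 to 1089 CPM in Con_M (edgeR adjusted p = 0.32).

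Hormone receptors did not pass. Esr1, the oestrogen receptor alpha, had 1.77, 2.52, 1.79 and 1.69 CPM in Con_F 1 to 4 and 1.67, 0.997 and 1.71 CPM in Con_M 1 to 3. The groups overlapped (log2 fold change 0.40, standard error 0.22, edgeR adjusted p = 0.478). Nr3c1, the glucocorticoid receptor, stood at -0.19 (200.3 ± 25.3 CPM (SD, n = 4) in Con_F and 229 ± 12.5 CPM (n = 3) in Con_M), and Nr3c2, the mineralocorticoid receptor, at -0.03 (884 ± 98.0 CPM (SD, n = 4) in Con_F and 902 ± 133 CPM (n = 3) in Con_M), with edgeR adjusted p-values of 0.468 and 0.959. Esr2, Gper1 and Pgr, the other oestrogen receptors and the progesterone receptor, lay under the count filter, with 2 to 12, 0 to 4 and 0 to 1 counts per control library. Of the 14 tested steroid receptor and enzyme genes 10 were below 0, with a median of -0.08. Hsd17b7, which works in sterol synthesis and makes oestradiol, had 11.8, 13.6, 15.8 and 14.5 CPM in Con_F 1 to 4 and 20.4, 16.8 and 18.4 CPM in Con_M 1 to 3, so that females lay under males (log2 fold change -0.42, standard error 0.12, edgeR adjusted p = 0.193). The 25 steroid-responsive genes had a median of -0.03 and 11 above 0. Pcm1, used for sorting the nuclei, had 115 ± 13.5 CPM (SD, n = 4) in Con_F and 125 ± 3.93 CPM (n = 3) in Con_M (log2 fold change -0.12, standard error 0.09, edgeR adjusted p = 0.646).

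Growth hormone, IGF and insulin signalling had 0 of 32 members past the threshold and 8 of 32 with an unadjusted p under 0.05, all 8 higher in females, where 7.28% of all autosomal genes tested were higher with such a p. Akt1, a kinase of insulin signalling, had 74.7, 56.3, 76.9 and 44.9 CPM in Con_F 1 to 4 and 40.1, 41.5 and 37.9 CPM in Con_M 1 to 3. Every female exceeded every male, and Con_F 4 was the lowest of the females (log2 fold change 0.66, standard error 0.15, edgeR adjusted p = 0.0912). Among the alternatives Akt1 passed only in DESeq2 (adjusted p = 0.00351) and without Con_F 4. Without that library its log2 fold change was 0.80 (edgeR adjusted p = 0.00398). Leaving out the lowest female raises this value, and the same leave-out raised the autosomal calls to 21 higher and 53 lower. Cish, which cytokine and growth hormone signalling induces, had 51.5 to 85.2 CPM in Con_F and 31.1 to 46.3 CPM in Con_M (log2 fold change 0.78, standard error 0.23, edgeR adjusted p = 0.224). Under the PGR vector Akt1 stood at 0.09 and Cish at -0.21.

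Most genes of fat burning stood below 0. Among 38 tested fatty acid uptake and oxidation genes 29 were below 0, with a median of -0.20, and 0 passed. An unadjusted p under 0.05 was reached by 6 of 38, against 12.3% of all autosomal genes tested. Acaa2, a thiolase of mitochondrial beta oxidation, had 55.9, 91.7, 99.3 and 125 CPM in Con_F 1 to 4 and 107, 139.6 and 205 CPM in Con_M 1 to 3 (log2 fold change -0.69, standard error 0.28, edgeR adjusted p = 0.359). Hadha, of the trifunctional protein of the same pathway, stood at -0.36, the fatty acid transporter Cd36 at -0.29 and the carrier protein Ucp2, with a value in the other direction, at 0.59. The libraries of each sex overlapped in all 4. The median of the list ranged from -0.29 to -0.09 when single control libraries were left out, nearest to 0 without Con_M 3. In the citric acid cycle and its pyruvate supply 20 of 29 were below 0 (median -0.04), and Pdhx, a subunit of pyruvate dehydrogenase, had 51.6, 56.5, 43.3 and 46.9 CPM in Con_F 1 to 4 and 70.1, 69.3 and 60.1 CPM in Con_M 1 to 3, with groups apart (log2 fold change -0.42, standard error 0.12, edgeR adjusted p = 0.181). Under the PGR vector Pdhx stood at 0.10. The respiratory chain (53 genes, median -0.03) and glycolysis (30 genes, median -0.02) had 0 members with an unadjusted p under 0.05.

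**Figure D4:**
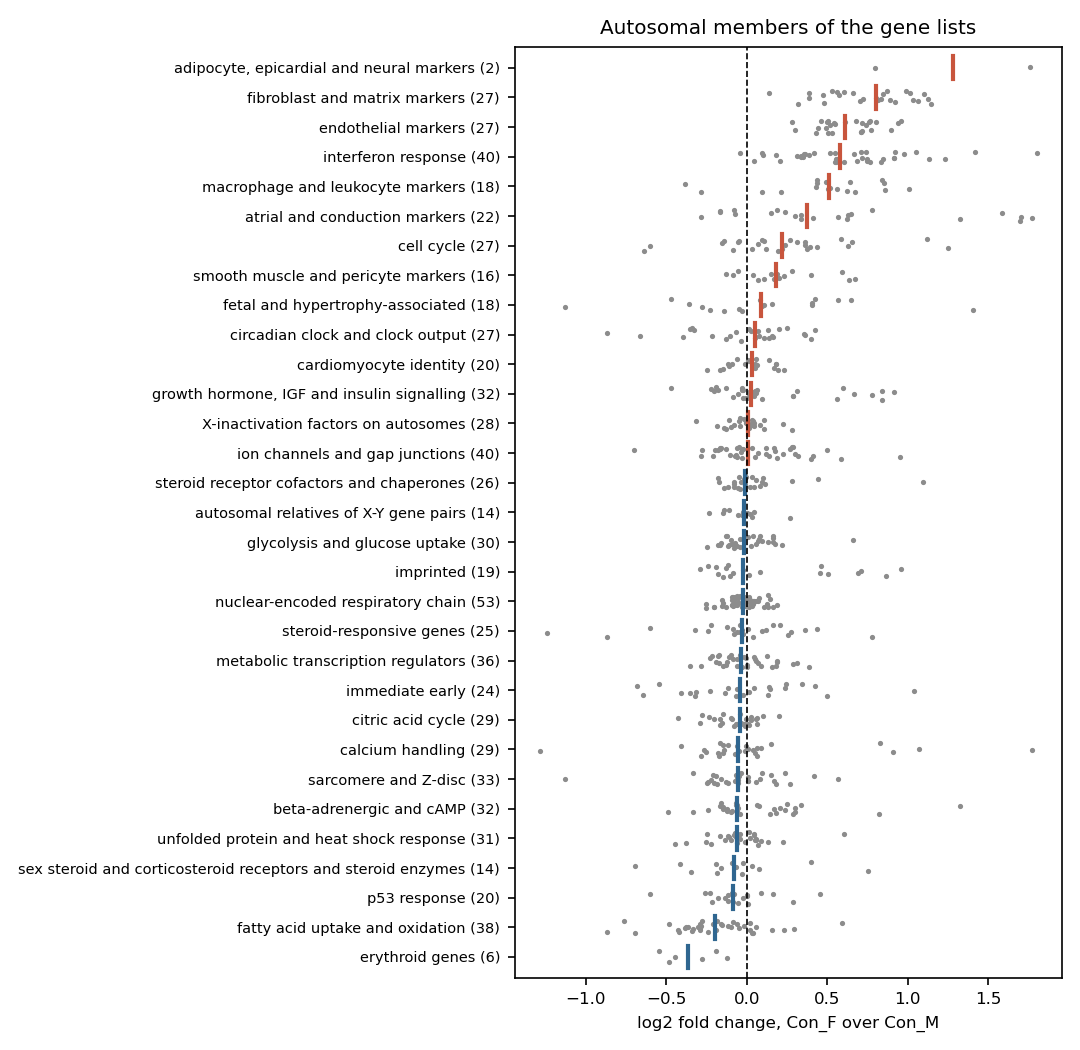
Log2 fold change of females over males under the control vector (x axis) for the tested autosomal members of each gene list, with the number tested in brackets; bars are list medians and the dashed line is the median of all autosomal genes tested. Markers of fibroblasts, endothelium and leukocytes and interferon genes lie to the right with medians of 0.51 to 0.80, and erythroid and fatty acid genes lie to the left at -0.36 and -0.20.

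Markers of other cells had 0 members past the threshold in edgeR, and their values differed by cell type. All 27 tested fibroblast and matrix markers were above 0. Their median log2 fold change was 0.80, and 13 had an unadjusted p under 0.05, where 7.28% of all autosomal genes tested were higher in females with such a p. Every female lay above every male in 15 of 27, against 6.42% of all autosomal genes tested. Col1a1, the chain of the main fibrous collagen, had 16.7, 20.2, 25.8 and 17.8 CPM in Con_F 1 to 4 and 11.1, 4.87 and 11.2 CPM in Con_M 1 to 3 (log2 fold change 1.14, standard error 0.34, edgeR adjusted p = 0.233), and Lum, a proteoglycan of the matrix, 2.18 to 3.36 CPM in Con_F and 0.712 to 1.69 CPM in Con_M (log2 fold change 1.03, standard error 0.33, edgeR adjusted p = 0.24). The summed level of the markers was 227 to 339 CPM in Con_F and 113 to 215 CPM in Con_M. No marker of the list was at 0. All 27 endothelial markers were above 0 as well, with a median of 0.61, 17 at an unadjusted p under 0.05 and 13 with groups apart. Pecam1, an adhesion protein of vessel walls, had 10.8, 13.04, 11.8 and 12.3 CPM in Con_F 1 to 4 and 8.79, 5.36 and 7.53 CPM in Con_M 1 to 3 (log2 fold change 0.72, standard error 0.19, edgeR adjusted p = 0.161). The summed endothelial level was 137 to 169 CPM in Con_F and 72.8 to 134 CPM in Con_M, with Con_M 2 the lowest in both sums.

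In bulk nuclei fewer cells of a type and less RNA per cell cannot be told apart. The endothelial median was 0.43 without Con_M 2 and 0.94 without Con_M 1, and the fibroblast median was 0.54 without Con_M 2 and 0.95 without Con_F 1. Under the PGR vector the medians were 0.46 for fibroblast and 0.21 for endothelial markers. Smooth muscle and pericyte markers had a median of 0.18 (13 of 16 above 0), and 22 atrial and conduction markers one of 0.37 (17 above 0, 9 with an unadjusted p under 0.05), with summed levels that overlapped in both lists. Such a p was reached by 12.3% of all autosomal genes tested. Dkk3, a secreted protein that served as an atrial marker here, had 6.43, 8.63, 7.42 and 3.94 CPM in Con_F 1 to 4 and 2.84, 2.25 and 2.77 CPM in Con_M 1 to 3 (log2 fold change 1.33, standard error 0.33, edgeR adjusted p = 0.157). Sln, the atrial regulator of the calcium pump, had 0.225, 0.700, 0.455 and 0.423 CPM in Con_F 1 to 4 and 0.151, 0.114 and 0.0934 CPM in Con_M 1 to 3 (log2 fold change 1.77, standard error 0.56, edgeR adjusted p = 0.23), and the atrial light chain Myl7 stood at 0.24. Erythroid genes were below 0 in 6 of 6, with a median of -0.36 and 0 with an unadjusted p under 0.05. Their summed levels overlapped, at 45.8 to 74.2 CPM in Con_F and 60.8 to 89.7 CPM in Con_M. The part of these markers in the autosomal calls was not tested.

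Interferon genes were above 0 in 39 of 40, with a median of 0.58, and 0 passed. An unadjusted p under 0.05 was reached by 15 of 40, all higher in females, and every female lay above every male in 13 of 40. Over all autosomal genes tested these shares were 7.28% and 6.42%. H2-D1, a class I histocompatibility chain with close copies that share reads, had 3.69, 4.85, 4.19 and 6.16 CPM in Con_F 1 to 4 and 2.56, 1.57 and 2.61 CPM in Con_M 1 to 3 (log2 fold change 1.05, standard error 0.25, edgeR adjusted p = 0.117). Irf1, a transcription factor of the interferon response, had 1.84 to 2.30 CPM in Con_F and 1.14 to 1.37 CPM in Con_M, again without overlap (log2 fold change 0.75, standard error 0.24, edgeR adjusted p = 0.23). The summed level of the 44 genes was 117 to 156 CPM in Con_F and 83.1 to 113 CPM in Con_M. Under the PGR vector the median was 0.19. Cell cycle genes had a median of 0.22 and 20 of 27 above 0, among them Cdk1, the kinase that drives mitosis, with 0.264 to 0.416 CPM in Con_F and 0.140 to 0.187 CPM in Con_M (log2 fold change 1.12, standard error 0.35, edgeR adjusted p = 0.23), and Cenpf, a kinetochore protein, with 22.7 to 26.9 CPM in Con_F and 17.3 to 21.9 CPM in Con_M (log2 fold change 0.36, standard error 0.11, edgeR adjusted p = 0.223). Under the PGR vector they stood at 1.47 and 0.56.

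**Figure D5:**
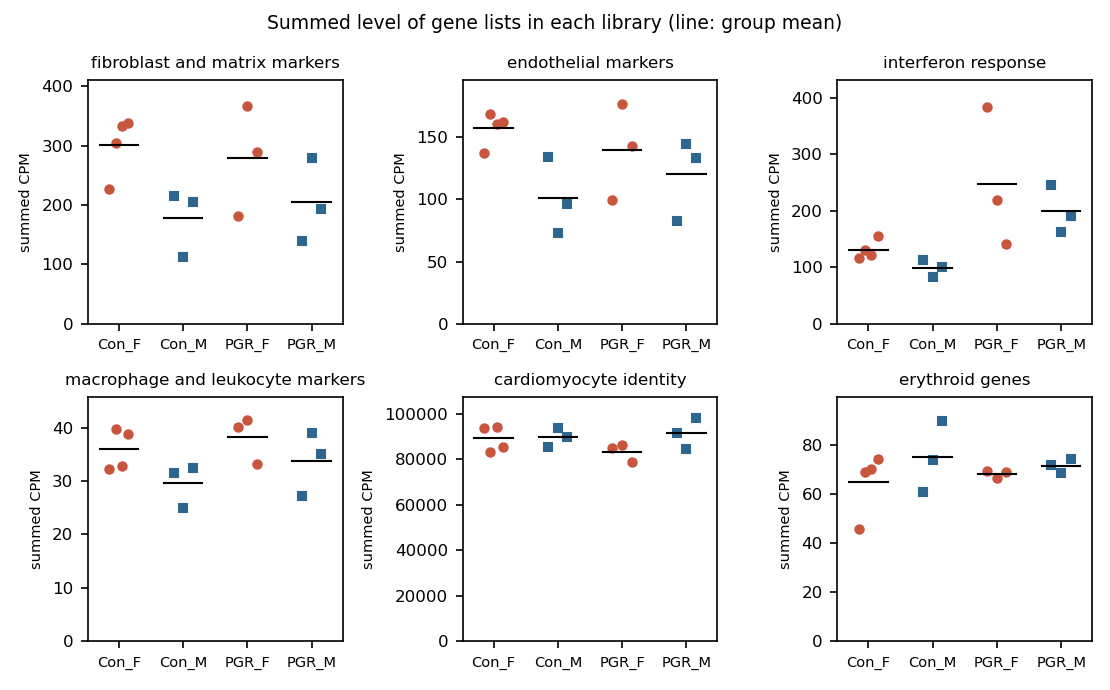
Summed CPM (y axis, from 0) of 6 gene lists in each of the 13 libraries, grouped by vector and sex, with lines at the group means. Fibroblast and endothelial sums of Con_F lie above those of Con_M with no overlap, PGR_F and PGR_M overlap in all 6 lists, and the cardiomyocyte identity sums overlap in all 4 groups.

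Autosomal genes with ties to the sex chromosomes showed no call. The 28 autosomal factors of X inactivation had a median of 0.01, with Lbr, the nuclear lamina receptor that binds Xist, at 0.22 (18.0 to 20.98 CPM in Con_F and 15.5 to 16.5 CPM in Con_M) and the genome organiser Satb1 at -0.32 (33.3 to 41.0 CPM in Con_F and 44.3 to 51.3 CPM in Con_M), both with groups apart (edgeR adjusted p = 0.32 and 0.212). The 14 autosomal relatives of X-Y gene pairs lay between -0.24 and 0.27. Of 19 imprinted genes 10 were below 0, while Plagl1, a paternally expressed growth regulator, had 5.84, 6.81, 6.24 and 5.45 CPM in Con_F 1 to 4 and 4.32, 4.13 and 4.89 CPM in Con_M 1 to 3 (log2 fold change 0.46, standard error 0.12, edgeR adjusted p = 0.16). Its value under the PGR vector was 0.42 (SE 0.13). Clock genes (27, median 0.05) and immediate early genes (24, median -0.04) changed the side of their median with single libraries. Their medians ranged from -0.21 to 0.32 and from -0.14 to 0.28 when a control library was left out.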

How the data were processed

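Raw read counts per gene were deposited by the authors, with 1 column per library and no normalisation; per the submitters' processing notes STAR 2.5.3a and featureCounts 1.5.0 were used, and the builds GRCm38 and mm10 are named. Per the labels' protocols, sorted Pcm1 nuclei were lysed, ribosomal RNA was depleted and directional libraries were made. In all 55536 genes the deposited length spans start to end (end minus start, plus 1), which includes introns, and all identifiers matched GENCODE M21 with equal coordinates. Genes nested in others, such as Myom1, Cox4i1 and Cpt1b, were at 0 in every control library, which does not measure their expression. Strand use was checked on the counts of nested genes.

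Genes kept by filterByExpr (16125, of them 15614 autosomal) were fitted with edgeR 4.0.16 in R 4.3.3, with TMM factors, a robust quasi-likelihood fit and 4 group means over all 13 libraries. P-values were adjusted by Benjamini-Hochberg over all tested genes and autosomal rows reported. Standard errors are on the log2 scale and CPM were scaled by TMM. Correlations and principal components were taken on log2 CPM (prior count 2) of the tested autosomal genes. Alternatives were other scaling factors, filters, tables and sample sets, a replicate block, leaving out each library, DESeq2 1.42.0 and limma-voom 3.58.1. The fit was tested on simulated data with the same spread for every gene and no deviating library. That test does not bear on how the calls shift with single libraries.

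The genes, lists and tests were chosen with earlier results of these data known. Named were up to 12 autosomal genes per direction past the threshold, by smallest p, whose mean log2 CPM reached 1, without predicted or clone-named genes, small RNAs and pseudogenes. From each of 31 lists came every member past the threshold, or else the 2 with the smallest p, and Esr1, Esr2, Nr3c1, Nr3c2, Gper1, Pgr and Pcm1 were given in any case. Other members are named with the values a reader needs to place a pathway, chosen after their values were seen. No libraries were duplicates: chi-square per degree of freedom between pairs was 27.7 to 173.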

Additional observations from a re-analysis of the deposited data

Results flagged for a closer look

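Single libraries stood apart within Con_F in 8 of 90 groups of 4 values that were checked, by the gap to the nearest library divided by the whole range (Dixon's rule at 95%). Chance flags about 1 in 20 such groups. Con_F 4 had 4.20 CPM of the 4 Y-linked genes together, against 0.0467 to 0.399 in the other females. The same library was nearest to the males in Lgi1, with 14.1 CPM against 7.79 to 8.56, and in Wdr17, with 1.00 CPM against 0.554 to 0.622. Con_F 1 had 5.72 CPM of Ubash3b, against 7.58 to 7.86, 7.83 CPM of Stxbp2, against 6.87 to 7.03, and 3.48 CPM of Chac1, an enzyme of the stress response that breaks down glutathione, against 1.79 to 2.08. Con_F 2 had 2.52 CPM of Esr1, against 1.69 to 1.79. Con_F 3 had 20.98 CPM of Lbr, against 18.0 to 18.2. Without Con_F 4 the log2 fold change was -1.26 for Lgi1.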

How the results depend on the processing

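The count of 8 autosomal genes higher and 16 lower in control females stayed within 1.5 times under DESeq2 size factors and with the smaller table. It became 72 higher and 41 lower with no filter on low counts, 2 and 6 with the 7 control libraries alone, 4 and 10 without a robust prior, 0 and 0 with autosomal genes alone or with the adjustment over autosomal genes alone (the latter chosen after seeing the data), and 128 and 76 with DESeq2. Limma-voom gave 3 higher, and upper-quartile factors 9 lower. Leaving out single libraries gave 1 to 64 higher and 1 to 53 lower; the values without single PGR libraries (2 to 7 and 5 to 10) were added after seeing the data. With the replicate block 4 higher and 8 lower passed, and 9 of the 24 remained. Replicate numbers are shared by the groups without a stated pairing. Deviations of same-numbered control libraries correlated with r = 0.25, -0.05 and 0.07, and those of differently numbered ones with -0.33 to 0.28. Same-numbered PGR libraries had r = 0.09 and 0.10, and differently numbered ones -0.14 to 0.07. Not every library was closest to its own number, and whether the number marks a pairing was not tested. In the PGR comparison 8 genes became 33 with no filter, 1 with either autosomal alternative, 19 with the replicate block, 60 with DESeq2, 1 to 5 without single PGR libraries and 5 to 25 without single control libraries, which enter only its estimate of the spread. For the difference between the vectors 0 became 1 with no filter and 1 with DESeq2. No named gene that passed changed its sign, which groups without overlap made nearly certain beforehand. Of the 24 calls 24 held with DESeq2, 14 with limma-voom and 5 with the 7 control libraries alone. The cause of these shifts was not tested, except that the autosomal adjustment counts fewer genes with a small p. With 3 or 4 pools a group and 33299624 to 86330792 counts a library, genes under the count filter, such as Esr2, Gper1 and Pgr, could not be compared.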

Other observations

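The 8 autosomal genes that passed between the sexes under the PGR vector (3 higher and 5 lower in females) included 7 with the same sign and 6 with groups apart in the same direction under the control vector, where Atp2b2 alone passed. Of all autosomal genes tested 62.0% had the same sign under both vectors, and 11.3% had control groups apart in either direction. The 8 genes were chosen by the PGR contrast and named after their values were seen. Ryr1, the calcium release channel of skeletal muscle, had 0.399, 0.210, 0.191 and 0.767 CPM in Con_F and 0.955, 1.54 and 1.15 CPM in Con_M, against 0.0936, 0.143 and 0.170 CPM in PGR_F and 0.656, 1.46 and 1.58 CPM in PGR_M. Its log2 fold change was -1.62 (edgeR adjusted p = 0.143) under the control vector and -3.09 (0.0233) under the PGR vector. Rp1, a microtubule protein known from photoreceptors, had 147, 156, 121 and 109 CPM in Con_F and 98.4, 108 and 70.2 CPM in Con_M, a log2 fold change of 0.53 (0.155), and one of 0.88 (0.0233) under the PGR vector. Fmn2, an actin-nucleating formin, stood at 0.97 and 1.68 in the same order. Tfpi, an inhibitor of blood clotting, was the member of opposite sign, with -0.06 under the control vector and 0.46 under the PGR vector.

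The remaining lists had 0 calls in edgeR. The median was -0.03 for 36 metabolic transcription regulators, -0.06 for 31 genes of the unfolded protein and heat shock response, -0.08 for 20 genes of the p53 response, -0.01 for 26 steroid receptor cofactors and chaperones and 0.09 for 18 fetal and hypertrophy-associated genes. Esrrg, a nuclear receptor that drives mitochondrial genes, had 1964 to 2420.2 CPM in Con_F and 2249 to 2929 CPM in Con_M (log2 fold change -0.29, standard error 0.11, edgeR adjusted p = 0.294). Of 17 autosomal adipocyte, epicardial and neural markers 2 passed the count filter, Wt1 at 0.80 and Plin1 at 1.76, and the summed level of all 17 was 1.77 to 2.87 CPM in Con_F and 1.03 to 1.21 CPM in Con_M. Meg3 and Rian, maternally expressed noncoding RNAs of the same imprinted cluster, stood at 0.96 and 0.86 (edgeR adjusted p = 0.264 and 0.304), and at 0.23 and -0.03 under the PGR vector.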
